A study of Mus musculus with 15 samples.

Results

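The comparison of tumours from weakly adherent and from unsorted MDA-MB-231 cells was taken within title number. A library titled weakly adherent was set against the unsorted library with the same number in its title, and the numbers 4, 5, 6, 7-8 and 9 each had both, which gave 5 pairs made of 10 of the 15 libraries in the series. The remaining 5 libraries were 4 from strongly adherent cells and a weakly adherent library numbered 10 with no unsorted partner. MDA-MB-231 is a line of human breast cancer without hormone receptors or ERBB2 amplification. In all groups it carried GFP and luciferase, and each tumour grew in a mouse of the strain labelled Nod/Skid. Cells called weakly adherent had come off under fluid shear at 10 dyn/cm2 and cells called unsorted had seen no shear. The tumours were later taken out and dissociated, and their bulk mRNA was sequenced, so the values describe tumours grown from the sorted cells and not the cells at the sort. The labels give no animal age and no tumour mass, do not say what the title number stands for, and do not say that the libraries came from separate animals. The p-values therefore measure the spread between these libraries, which may be technical in part. Unsorted cells had not been divided by adhesion at all.

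Cells hold on to their matrix through integrins, paired receptors that gather scaffold proteins such as talin, vinculin and zyxin and the focal adhesion kinase PTK2 into focal adhesions. Those sites pull on the matrix through actin and non-muscle myosin, under control of the kinases ROCK1 and ROCK2, and genes of the contractile machinery are controlled together by serum response factor. In breast cancer cells weak hold on the matrix has been studied as a trait of cells that migrate and spread readily.

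The 10 libraries held 30372619 to 45434799 counts, with 16760 to 17809 genes detected. The pair titled 6 stood apart before any comparison was made. CDH1, the gene of E-cadherin, was at 0.398 CPM (counts scaled to library size) in unsorted 6 and at 5.57 CPM in weakly adherent 6, and at 53.1 to 213 CPM in the other 8 libraries, while MDA-MB-231 is known as a line with little E-cadherin. VIM (vimentin), a marker of the line, was at 6342 and 7414 CPM in that pair and at 3489 to 4478 CPM in the others. Strongly adherent 6, not among the 10, was at 0.268 CPM (CDH1) and 6560 CPM (VIM), with all 15 libraries scaled together. The other strongly adherent libraries were at 115.2 to 549.1 CPM (CDH1) and 1143 to 4254 CPM (VIM). CD44 and EGFR, also markers of the line, were expressed in all 10 libraries, at no less than 507 and 56.7 CPM. The hormone receptor genes, low in this line, had 0 to 7 counts (ESR1) and 0 to 19 counts (PGR) in the 10 libraries. The 20 striated muscle markers summed to 1174 CPM in unsorted 6, to 266.1 CPM in weakly adherent 6 and to 69.9 to 107.1 CPM in the other 8. Of the defining muscle markers, CKM had 4162 and 657 counts in the unsorted and weakly adherent libraries of pair 6 and 0 to 20 counts in the others, and MYH1 had 3169 and 316 counts against 0 to 10. Outside the 10, CKM had 22212 counts in strongly adherent 5 and 2316 in strongly adherent 6, so high muscle markers were not particular to number 6. TNNT1, a slow muscle troponin on the same list, made up most of the sum in the other 8 libraries, at 58.9 to 99.7 CPM. In bulk tissue fewer cells of a type and less RNA per cell cannot be told apart. Results below are therefore given over 5 pairs and without pair 6.

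No gene passed the test over the 5 pairs. With the title number as a block, edgeR (quasi-likelihood test) called 0 of 14573 genes at an adjusted p under 0.05 (0% called), the smallest adjusted p was 0.719, and 177 genes (1.21%) had an unadjusted p under 0.05. DESeq2 called 0 genes (178, or 1.22%, at an unadjusted p under 0.05). Consistency over the pairs was counted instead, on the difference in log2 CPM (prior count of 2) of weakly adherent minus unsorted. It was positive in all 5 pairs for 191 genes (1.31% of those tested) and negative in all 5 for 200 genes (1.37%). With at least a 1.2-fold difference in each pair, 13 genes were higher (0.0892%) and 19 were lower (0.13%). Most genes had mixed signs, with 4997 positive in 2 pairs and 4884 positive in 3. The smallest exact two-sided p that 5 pairs allow by flipping signs is 0.0625, so 5 of 5 is a description. A share of 0.0625 of genes would also have a single sign if signs were random and independent between pairs. The share found was 2.68%, which is smaller, so the number of such genes is no sign of a shared difference. In each list of values below the order is pair 4, 5, 6, 7-8 and 9.

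Among contractile genes, MYL9, the regulatory light chain of smooth muscle and non-muscle myosin, was lower in the weakly adherent library of all 5 pairs. It was at 163, 160.5, 111, 137 and 153 CPM in the unsorted libraries and at 117, 109, 96.6, 119 and 102 CPM in the weakly adherent ones. Within each pair the weakly adherent library was the lower, and across pairs the groups overlapped only through unsorted 6, which lay below 2 weakly adherent libraries. The pair differences were -0.48, -0.56, -0.20, -0.21 and -0.59 in log2 CPM, and the fitted log2 fold change was -0.41 ± 0.10 (SE) at an edgeR adjusted p of 0.9998. TAGLN, the actin-binding protein transgelin of contractile cells, was lower in 4 of 5 pairs, at 58.3, 41.1, 12.7, 44.5 and 112 CPM in unsorted and 33.7, 29.4, 16.1, 35.8 and 57.2 CPM in weakly adherent libraries, with pair 6 the exception. The weakly adherent library numbered 10, with no unsorted partner, lay above the weakly adherent libraries of the pairs for both genes. It was at 170.8 (MYL9) and 77.63 CPM (TAGLN), with all 15 libraries scaled together. TPM1, an alpha-tropomyosin that runs along actin filaments, was lower in 5 of 5, with differences of -0.12, -0.19, -0.99, -0.18 and -0.15, so that pair 6 differed far more than the rest. ZYX (zyxin), which joins focal adhesions to actin, was lower in 5 of 5 as well, with -0.54 in pair 5 but -0.010 in pair 4 and -0.076 in pair 6. ANLN, the actin scaffold anillin of dividing cells, was higher in 5 of 5 and by no more than 0.42. These were the only 3 of 34 tested members of the actomyosin list (MYL9, TPM1 and ANLN) and the only 1 of 36 of the focal adhesion list (ZYX) with a single sign, against 2.68% of all genes, and none of the 34 and 36 was called. Actin, myosin and tropomyosin genes have near-identical copies, so reads could be split between them.

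NPAS2 and NR1D1 were higher in all 5 pairs. NPAS2, the partner of BMAL1 that can stand in for CLOCK, was at 56.0, 67.9, 76.3, 59.5 and 60.7 CPM in unsorted and 73.8, 105, 80.4, 89.3 and 77.7 CPM in weakly adherent libraries. Pairs 4, 5, 7-8 and 9 differed by 0.40, 0.63, 0.58 and 0.36 and pair 6 by 0.075 (fitted log2 fold change 0.41 ± 0.11, SE, edgeR adjusted p = 0.9998). NR1D1, the repressor REV-ERB alpha of the clock, differed by 0.54, 0.31, 0.054, 0.38 and 0.15, again least in pair 6. The weakly adherent library numbered 10, with no unsorted partner, was at 58.49 CPM for NPAS2 with all 15 libraries scaled together. That lay below the weakly adherent libraries of the pairs. For NR1D1 it was at 20.12 CPM and had 737 counts, against 818 to 2190 counts in the 10 paired libraries. CLOCK itself had mixed signs, at 0.17, 0.27, -0.91, -0.0067 and 0.48. NPAS2 and NR1D1 were the only 2 of the 17 tested members of the clock list that were higher in 5 of 5, against 1.31% of all genes, and none was called. The median difference of the list was 0.23, 0.11, 0.023, -0.0067 and 0.11 in the 5 pairs. The labels name no time of day for the removal of the tumours.

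Other genes were higher in all 5 pairs by amounts that varied. COLGALT2, an enzyme that puts galactose on collagen, was at 10.3, 13.5, 4.08, 5.85 and 9.80 CPM in unsorted and 15.2, 23.3, 15.5, 16.3 and 10.9 CPM in weakly adherent libraries, and its differences ran from 0.16 in pair 9 to 1.92 in pair 6. PI16, a peptidase inhibitor known as a marker of fibroblasts, was at 6.54, 8.80, 4.20, 2.43 and 5.41 CPM against 7.88, 13.4, 11.3, 5.41 and 6.82 CPM, with every pair above 1.2-fold. The fibroblast markers, a list that holds PI16, summed to 517.1 to 1055 CPM in unsorted and 437.8 to 1259 CPM in weakly adherent libraries, LUM was above 0 counts in all 10, and the part of host cells in the PI16 values was not tested. NRIP1, a corepressor of nuclear receptors, differed by 0.55, 0.58, 0.18, 0.22 and 0.51. PRKCE, protein kinase C epsilon, differed by 0.52, 0.64, 0.17, 0.41 and 0.46. FZD4, a receptor of Wnt and norrin ligands, showed the most even difference of those named here, 0.18, 0.17, 0.24, 0.21 and 0.19. ENPP4 differed by 0.32, 0.16, 0.65, 0.45 and 0.75, TRIM59 by 0.29, 0.31, 1.21, 0.22 and 0.27 and UBXN2B by 0.20, 0.16, 0.16, 0.22 and 0.37. The fitted log2 fold changes of these 8 genes ran from 0.20 ± 0.094 (FZD4) to 0.97 ± 0.24 (COLGALT2), and each edgeR adjusted p was at least 0.9998. CHRDL1, a secreted antagonist of bone morphogenetic proteins, was higher in pairs 4, 5, 6 and 7-8 and level in pair 9 (1.18, 1.3, 0.64, 0.69 and -0.060). ABCA1, which exports cholesterol, was higher in 5 of 5 pairs (0.32, 0.55, 0.93, 0.040 and 0.63), with pair 7-8 near 0.

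Genes lower in all 5 pairs, also with varied amounts, included SLC2A8 and CEBPD. SLC2A8, an intracellular sugar transporter, was at 9.44, 10.9, 7.86, 9.26 and 10.3 CPM in unsorted and 6.45, 7.67, 6.93, 7.55 and 8.84 CPM in weakly adherent libraries. CEBPD, a transcription factor of inflammation, differed by -0.15, -0.14, -0.27, -1.05 and -0.18, with most of the difference in pair 7-8, where it was at 54.8 CPM in the unsorted and 26.5 CPM in the weakly adherent library. C17orf59, C14orf93, ZNF503 and JMJD4 were also lower in 5 of 5, and the largest difference among them was -0.62 (C14orf93, pair 9). IL11, a cytokine of the interleukin-6 family, was lower in 4 pairs and level in pair 6, at -0.47, -0.35, 0.080, -0.54 and -0.29. COL3A1, the fibrillar collagen type III chain, was lower in pairs 6, 7-8 and 9 by 0.55, 0.75 and 0.63 and level in pairs 4 and 5. COL1A1, the type I chain made beside it, differed by 0.21, -0.12, -0.50, -0.77 and -0.61. ACSS1, which activates acetate in mitochondria, was lower in pairs 4, 5 and 7-8 by 1.08, 0.56 and 1.07. ACSS2, which does so outside mitochondria, was higher in 5 of 5 but by 0.0024 in pair 6.

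The largest consistent differences lay in genes below a mean of 5 CPM, which the rule for named genes left out and which were picked here after their values were seen. TENM1, a teneurin that spans the membrane and binds cells to each other, was higher by 2.06, 1.84, 1.6, 2.26 and 2.51. It was at 0.0986, 0.732, 0.0249, 0.291 and 0.155 CPM in unsorted and 0.584, 2.75, 0.185, 1.60 and 1.13 CPM in weakly adherent libraries, and the counts in the unsorted library were 3 in pair 4 and 1 in pair 6. The ratio was 5.92 in pair 4 (95% counting interval 1.82 to 30.56) and 7.43 in pair 6 (0.901 to 342). Its fitted log2 fold change was 2.4 ± 0.36 (SE), the edgeR adjusted p was 0.7192, and the 4 strongly adherent libraries ranged from 0.156 to 9.63 CPM. The unpaired weakly adherent library numbered 10 was at 0.792 CPM for TENM1, with all 15 libraries scaled together. That lay just above the unsorted libraries and within the weakly adherent libraries of the pairs. DAPK1, a kinase of cell death and the cytoskeleton, was higher by 0.60, 2.66, 0.60, 1.84 and 1.02, and STRA6, the vitamin A receptor, by 0.83, 0.43, 0.43, 0.50 and 1.1. SOCS1, which damps cytokine signalling, was lower, with differences of -1.17, -0.31, -1.51, -0.45 and -0.50. So was the homeobox gene IRX2, with -0.91, -1.1, -1.07, -3.06 and -1.93 at a mean of 0.401 CPM. In pair 6 it had 1 count in the weakly adherent and 5 in the unsorted library, a ratio of 0.248 (95% counting interval 0.0052 to 2.213). In pair 7-8 the counts were 3 and 42.

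**Figure D1:**
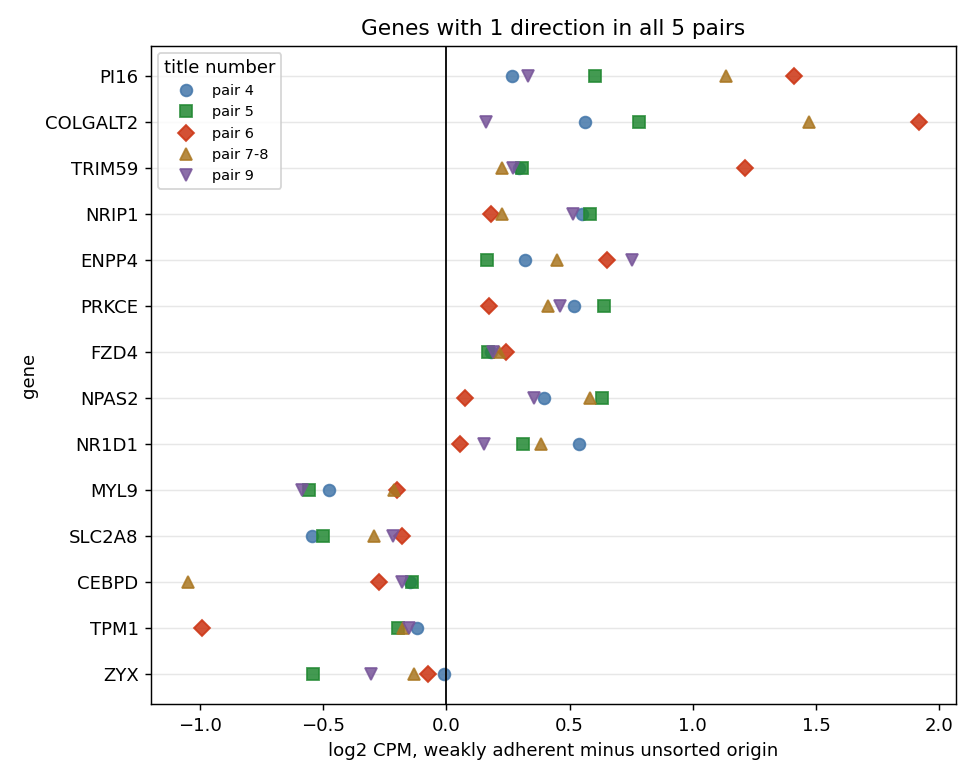
Difference in log2 CPM, weakly adherent minus unsorted origin (x axis), for 14 genes with the same sign in all 5 pairs (y axis), each symbol being 1 pair of libraries. Points of a gene lie on 1 side of 0, FZD4 has the narrowest spread shown (0.17 to 0.24), and pair 6 (red diamonds) is the farthest from 0 for PI16, COLGALT2, TRIM59, FZD4 and TPM1 and the nearest to it for NRIP1, PRKCE, NPAS2, NR1D1, MYL9 and SLC2A8.

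The differences of genes for adhesion itself lay within their spread over the pairs. ITGB1, the integrin beta-1 chain, differed by 0.35, 0.073, -0.41, -0.087 and 0.35 in log2 CPM at levels of 1091 to 1715 CPM (fitted log2 fold change 0.057 ± 0.14, SE, edgeR adjusted p = 0.9998). PTK2, focal adhesion kinase, was higher in the 4 pairs other than 6 by 0.18, 0.032, 0.17 and 0.23 and lower in pair 6 by 0.49. VIM differed by 0.068, -0.29, 0.23, -0.022 and -0.36 and CD44, the hyaluronan receptor, by -0.14, 0.052, 0.16, -0.16 and 0.18. CDH1 differed by -0.49, -0.060, 3.64, -0.46 and 1.22, so pairs 6 and 9 were higher and the others were level or lower, and MKI67, a marker of dividing cells, by 0.27, 0.50, -0.31, 0.078 and 0.13. The edgeR adjusted p of these 6 genes was at least 0.9998. Of the 19 integrin genes tested, 15 were higher in pair 4, 15 in pair 5, 8 in pair 6, 5 in pair 7-8 and 11 in pair 9. None had the same sign in all 5. The medians of the list were 0.45, 0.12, -0.062, -0.15 and 0.062.

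Several lists had nearly all members on 1 side of 0 within a pair but took another sign in other pairs, and no member of any list was called by edgeR over the 5 pairs. The 13 protein genes of the mitochondrial genome, which encode core subunits of the respiratory chain, had median differences of -0.053, 1.62, 0.93, -0.20 and -0.21. All 13 were higher in pairs 5 and 6 and 0 of 13 in pair 7-8. COX1, the mitochondrial gene MT-CO1 of respiratory complex IV, differed by -0.13, 1.66, 0.80, -0.20 and -0.18. Mitochondrial genes took 7.65, 3.65, 5.66, 7.55 and 6.30% of the counts in unsorted and 7.04, 10.65, 10.24, 6.57 and 5.78% in weakly adherent libraries, so unsorted 5 was low and weakly adherent 5 and 6 were high. Nuclear genes of oxidative phosphorylation (-0.25, -0.15, 0.31, 0.11 and -0.32) did not follow in pair 5. Cytosolic ribosomal protein genes had medians of -0.29, -0.012, 0.69, 0.093 and -0.37, with 51 of 51 higher in pair 6, 1 of 51 in pair 4 and 0 of 51 in pair 9. RPS18 was an example, at -0.090, 0.31, 1.12, 0.22 and -0.75. Replication histones had medians of -0.15, -0.25, 0.71, 0.42 and -0.20. Over all genes tested the medians of the 5 pairs lay between -0.0038 and 0.035.

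Interferon, HLA class I, NF-kB and unfolded protein stress lists had their highest medians in pair 6, and other stress lists did not. Heat shock genes (-0.000032, 0.020, -0.047, 0.15 and -0.18) and immediate early genes (0.17, -0.24, 0.15, 0.27 and -0.19) were highest in pair 7-8. The interferon response list had medians of -0.15, 0.067, 0.65, -0.056 and 0.19, with 40 of 47 members higher in pair 6 and 15 of 47 in pair 4. IFIT3, which restrains viral RNA, was the only 1 of the 47 with a single sign (2.68% of all genes), at 0.42, 0.067, 0.71, 0.045 and 0.012. HLA class I and antigen processing genes had medians of -0.13, -0.20, 0.34, -0.20 and -0.16. Unfolded protein and amino acid stress genes (-0.011, -0.14, 0.30, -0.11 and -0.029) and NF-kB cytokines and chemokines (0.0038, 0.027, 0.27, -0.028 and 0.048) stood out in pair 6 too. In the second of these SOD2, the mitochondrial superoxide dismutase induced by NF-kB, was higher in 5 of 5 pairs (0.21, 0.36, 0.12, 0.087 and 0.25).

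Epithelial lists split the pairs. Keratin and epithelial surface genes had medians of -0.61, -0.13, 0.73, -0.45 and 0.42, so pairs 6 and 9 were higher and the others lower, and 0 of 24 were higher in pair 4 against 21 of 24 in pair 6. Cell-cell junction genes divided the same way (-0.16, -0.21, 0.43, -0.33 and 0.53). KRT7, KRT18 and KRT19, keratins of simple epithelia, were lower in all 4 pairs other than 6. KRT7 differed by -0.39, -0.50, 0.15, -0.10 and -0.23, KRT18 by -0.48, -0.53, 0.38, -0.092 and -0.15 and KRT19 by -0.40, -0.55, 0.29, -0.25 and -0.19. Collagens and laminins had medians of 0.31, 0.20, 0.17, -0.41 and -0.088, with 27 of 30 higher in pair 4 and 3 of 30 in pair 7-8. The fibroblast marker list, which shares COL1A1, COL1A2 and COL3A1 with it, had medians of 0.24, 0.39, 0.11, -0.58 and -0.35. In pair 6 only 6 of the 12 fibroblast markers tested were higher, and the sum of the list was 517.1 CPM in unsorted and 437.8 CPM in weakly adherent 6. Their part in the collagen values was not tested. Hypoxia genes had medians of 0.35, 0.11, 0.12, -0.14 and -0.086. LOX, which cross-links collagen, and PDK1, which keeps pyruvate out of mitochondria, were higher in 5 of 5 pairs, LOX by 0.29, 0.013, 0.55, 0.19 and 0.16 and PDK1 by 0.51, 0.16, 0.050, 0.094 and 0.036. Cholesterol synthesis genes had their lowest median in pair 5, where 1 of 25 were higher (medians 0.12, -0.38, 0.0049, -0.012 and 0.088). Cell cycle genes (0.016, -0.15, -0.036, 0.14 and 0.00033) had no member with the same sign in all 5.

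**Figure D2:**
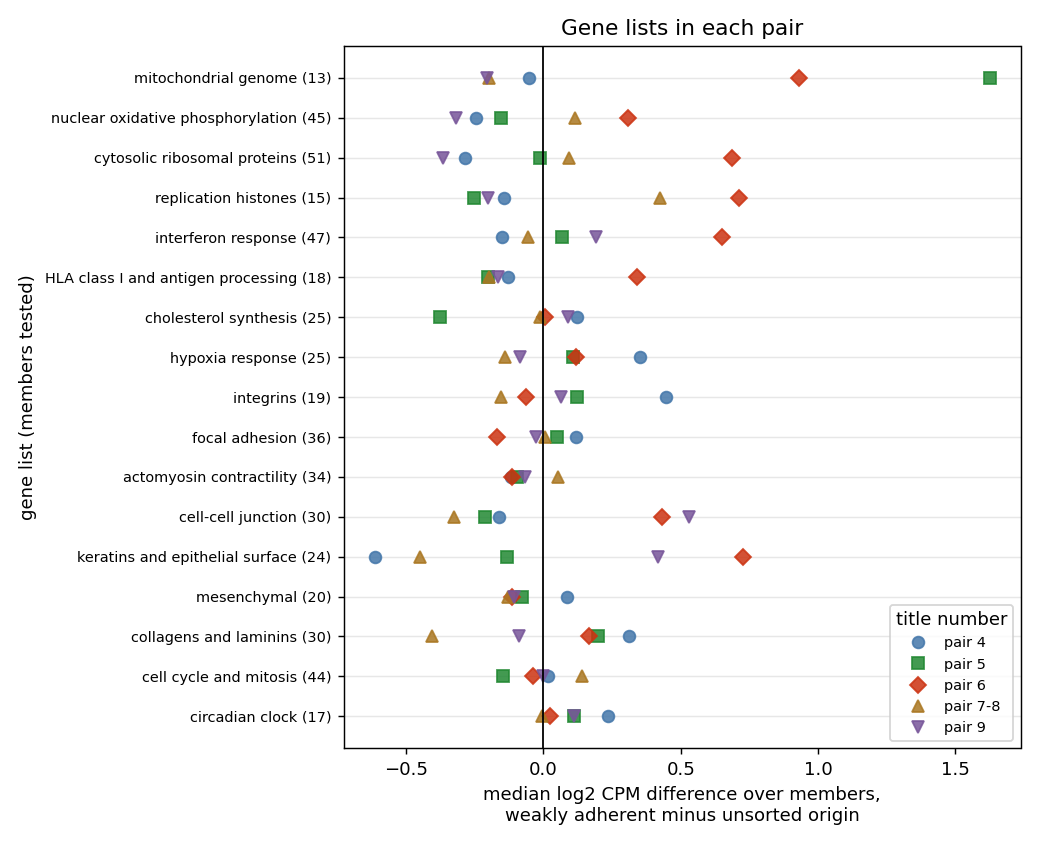
Median over the tested members of 17 gene lists (y axis, number of members in brackets) of the difference in log2 CPM, weakly adherent minus unsorted origin (x axis), each symbol being 1 pair. Pair 6 lies farthest to the right for ribosomal proteins, histones, interferon, HLA class I, oxidative phosphorylation and keratins, pair 5 leads for the mitochondrial genome (1.62), and pairs lie on both sides of 0 for every list shown.

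Pair 6 differed from the other 4 by test. An interaction term in edgeR, which compares the adhesion difference of 1 pair with that shared by the others and assumes that the lone pair varies like them, called 402 of 14573 genes for pair 6 (2.76%), 252 of them more positive (1.73%) and 150 more negative (1.03%), with 3121 at an unadjusted p under 0.05 (21.4%). For pairs 4, 5, 7-8 and 9 it called 0 genes each, with 528 (3.62%), 138 (0.947%), 383 (2.63%) and 235 (1.61%) at an unadjusted p under 0.05. DESeq2 called 13 (0.0892%), 3 (0.0206%), 17 (0.117%) and 0 genes there and 950 for pair 6 (6.78%). The count for pair 6 was 154 without pair 5, 269 without pair 9, 709 without pair 7-8 and 759 without pair 4. The SD of all gene differences was 0.716 in pair 6 and 0.433 to 0.507 in the others. Across genes, which are not independent, the differences of pair 6 correlated with those of pairs 4, 5, 7-8 and 9 at r = -0.168, -0.165, -0.202 and -0.0456, and the other pairs with each other at -0.141 to 0.155.

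Several of the genes with the largest interaction for pair 6 had no count at all in unsorted 6. They were chosen for that difference, so their values are a description. Of the keratin and epithelial surface list, 5 of 24 members were called more positive in pair 6 and 0 more negative, against 1.73% and 1.03% of all genes. LCN2, the iron-trapping secreted protein lipocalin-2, had 0 counts in unsorted 6 and 58 in weakly adherent 6, which makes it at least 23.93-fold higher (with a floor of 3 counts in that library, counting error only). In the other 8 libraries it was at 6.99 to 43.4 CPM, and weakly adherent 6 was at 1.78 CPM, still below all of them. PRSS8, the membrane protease prostasin, was at least 14.86-fold higher, CAMSAP3, which anchors microtubules at junctions, at least 9.49-fold, and CACNG4, a calcium channel subunit, at least 7.84-fold. Their edgeR adjusted p for pair 6 against the others was 0.0228 (LCN2), 0.0413 (PRSS8), 0.0114 (CAMSAP3) and 0.0181 (CACNG4). TFF3, a trefoil peptide secreted with mucus, had 1 count in unsorted 6 and 256 in weakly adherent 6, a ratio of 317 (95% counting interval 56.38 to 12570). Weakly adherent 6 was at 7.88 CPM, inside the range of the other 8 (6.35 to 19.7 CPM). MUC1 and ELF3 were picked after their values were seen. MUC1, a mucin of the apical surface, was at 12.1 CPM in unsorted 6 and 60.8 CPM in weakly adherent 6 against 55.1 to 133 CPM, and ELF3, an epithelial transcription factor, was at 0.895 and 6.31 CPM against 10.4 to 63.7 CPM. CDH1 itself had an interaction of 3.76 ± 1.07 (log2, SE) and was not called (edgeR adjusted p = 0.143).

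The levels behind the 252 genes showed where pair 6 departed from the other 8 libraries. In 93 genes both libraries of the pair lay below all 8, with weakly adherent 6 at a median of 35.46% of the median of the 8 (quartiles 23.34 and 50.62%) and unsorted 6 at 5.11% (quartiles 2.05 and 15.09%). In 79 genes unsorted 6 lay below and weakly adherent 6 within the 8, and in 5 both lay within. Weakly adherent 6 lay above all 8 in the rest, with unsorted 6 below them in 31 genes and within them in 44. The interferon genes IFI27, ISG15 and MX1 were among the 93. IFI27 was at 73.4 and 238 CPM in unsorted and weakly adherent 6 and at 376 to 679 CPM in the others (interaction 1.97 ± 0.28, SE, edgeR adjusted p = 0.00714), and MX1 at 4.67 and 29.1 CPM against 193 to 329.9 CPM. NUP210, a nuclear pore protein, was among the 79, at 0.323 CPM in unsorted 6 and 22.9 CPM in weakly adherent 6 against 15.6 to 32.9 CPM (interaction 6.46 ± 0.50, SE, edgeR adjusted p = 3.65e-04). SCARA3, a scavenger receptor, was like it, at 1.76 and 22.2 CPM against 13.6 to 38.9 CPM. Ribosomal proteins such as RPL11 and respiratory chain subunits such as COX6A1 were among the genes with weakly adherent 6 above the rest. RPL11 was at 531 and 987 CPM against 447 to 760.0 CPM, and RPS16 at 489 and 929 CPM against 407 to 683 CPM, though ribosomal protein genes have many near copies.

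Of the 150 genes that were more negative in pair 6, both libraries of the pair lay above all 8 others in 9 genes, unsorted 6 lay above and weakly adherent 6 within the 8 in 81 genes, and unsorted 6 above and weakly adherent 6 below all 8 in 35 genes. In 15 genes unsorted 6 lay within the 8 and weakly adherent 6 below them, and in 10 both lay within. Muscle genes were in the 9. DES, the muscle filament protein desmin, was at 206 CPM in unsorted 6, at 27.5 CPM in weakly adherent 6 and at 1.23 to 3.31 CPM in the others (interaction -3.11 ± 0.43, SE, edgeR adjusted p = 0.00924), and ACTA1, skeletal muscle actin, at 342, 53.5 and 0.260 to 3.19 CPM. NEB and TTN of the muscle list were also called more negative, while TNNT1 was called more positive in pair 6, at 46.0 CPM in unsorted and 84.1 CPM in weakly adherent 6, and the other 6 of the 11 tested members of the list were not called. Reads of mouse muscle that align to human genes were not told apart from human reads. The 150 also held genes that were higher in the weakly adherent library of the other 4 pairs, such as ROCK2, ITGB3, EGFR and the transcription factor ELK3. Their interactions were -1.67 ± 0.23 (ROCK2), -1.78 ± 0.28 (ITGB3), -1.31 ± 0.28 (EGFR) and -1.2 ± 0.22 (ELK3) on the log2 scale (SE), with edgeR adjusted p of 0.00532, 0.0114, 0.0359 and 0.0214. ZEB1, a repressor of E-cadherin, was at 119 CPM in unsorted 6 and 73.3 CPM in weakly adherent 6 against 39.9 to 69.4 CPM in the others.

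**Figure D3:**
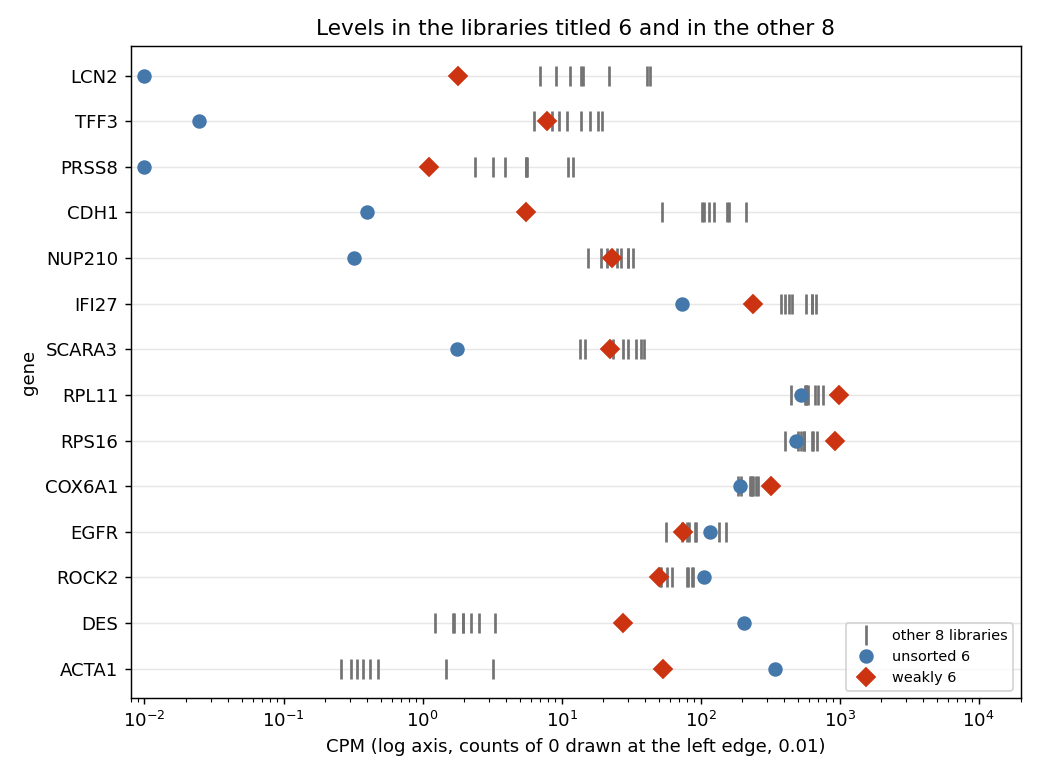
CPM on a log axis (x) for 14 genes (y) in unsorted 6 (blue circles), weakly adherent 6 (red diamonds) and the other 8 libraries (grey ticks). Unsorted 6 has 0 counts for LCN2 and PRSS8, drawn at the left edge, weakly adherent 6 lies between unsorted 6 and the other 8 for LCN2, CDH1, IFI27 and DES, among the other 8 for NUP210 and SCARA3, and above them for RPL11 and RPS16.

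A single sign is easier to reach over 4 pairs than over 5, whichever pair is left out. Without pair 6, of 14669 genes tested, 1369 were higher in 4 of 4 pairs (9.33%) and 1139 lower (7.76%), and 115 (0.784%) and 82 (0.559%) by at least 1.2-fold in each. Without pair 4, 5, 7-8 or 9 in its place, 65, 43, 63 and 45 genes were higher and 43, 37, 46 and 34 lower by that fold. Of the genes of a single sign in the 4 pairs other than 6 that were also tested with pair 6, 1362 were higher, and 195 of these were higher in pair 6 and 1167 lower there. Of the 1129 that were lower, 197 were lower in pair 6 and 932 higher, while over all genes tested 7780 of 14573 were higher in pair 6. edgeR still called 0 genes, with a smallest adjusted p of 0.161 and 1362 genes at an unadjusted p under 0.05 (9.28%), of which 748 were higher (5.1%) and 614 lower (4.19%). DESeq2, an alternative added after seeing the data, called 36 of 13531 genes (0.266%), 29 higher (0.214%) and 7 lower (0.0517%). Its count rested on single pairs: it was 0 when pair 5 was left out too, 59 without pair 4, 117 without pair 7-8 and 25 without pair 9. With any other number left out in place of 6, DESeq2 called 0 (number 4), 0 (5), 2 (7-8) or 3 (9) genes. Of the 36 genes, 30 had the opposite sign in pair 6, made up of 24 of the 29 higher and 6 of the 7 lower genes. Pair 6 took no part in calling the 36 genes. It was left out with earlier results of these data known, so their direction there is given as a description.

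The 29 higher genes included 2 integrin chains. ITGB3, the beta-3 chain of the vitronectin receptor, was at 16.5, 21.4, 14.6 and 21.9 CPM in unsorted 4, 5, 7-8 and 9 and at 32.3, 47.0, 23.1 and 31.3 CPM in the weakly adherent libraries, so the groups of these 4 pairs did not overlap. The genes of this set were called on the same libraries, so such separation is a description. The log2 fold change of ITGB3 over the 4 pairs was 0.82 ± 0.15 (SE, DESeq2 adjusted p = 1.07e-04, edgeR adjusted p = 0.161). In pair 6 it ran the other way, from 39.0 to 20.0 CPM. ITGA1, a collagen-binding integrin chain, was higher in pairs 4, 5 and 9 by 1.64, 1.18 and 1.18 and lower in 7-8 by 0.17 (0.97 ± 0.25, SE, DESeq2 adjusted p = 0.0342). EGFR, the epidermal growth factor receptor, was at 74.0, 56.7, 80.2 and 83.2 CPM and 135, 93.3, 90.7 and 152 CPM (0.66 ± 0.14, SE, DESeq2 adjusted p = 0.0021, edgeR 0.274), with its smallest difference in pair 7-8. ROCK2, the kinase that drives myosin contraction, was at 57.0, 50.8, 62.7 and 52.3 CPM and 86.4, 79.8, 80.6 and 88.7 CPM, again without overlap (0.59 ± 0.12, SE, DESeq2 adjusted p = 5.54e-04). TLR4, the receptor of bacterial lipopolysaccharide, was at 9.54, 18.1, 15.8 and 25.3 CPM and 29.5, 36.2, 26.4 and 36.3 CPM (0.97 ± 0.18, SE, DESeq2 adjusted p = 1.66e-04). NPAS2 was in this set as well (0.49 ± 0.11, SE, DESeq2 adjusted p = 0.00754). The weakly adherent library numbered 10, with no unsorted partner, lay below these unsorted libraries for the higher genes given here in CPM. It was at 12.86 (ITGB3), 36.47 (EGFR), 39.69 (ROCK2) and 6.33 CPM (TLR4), with all 15 libraries scaled together.

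**Figure D4:**
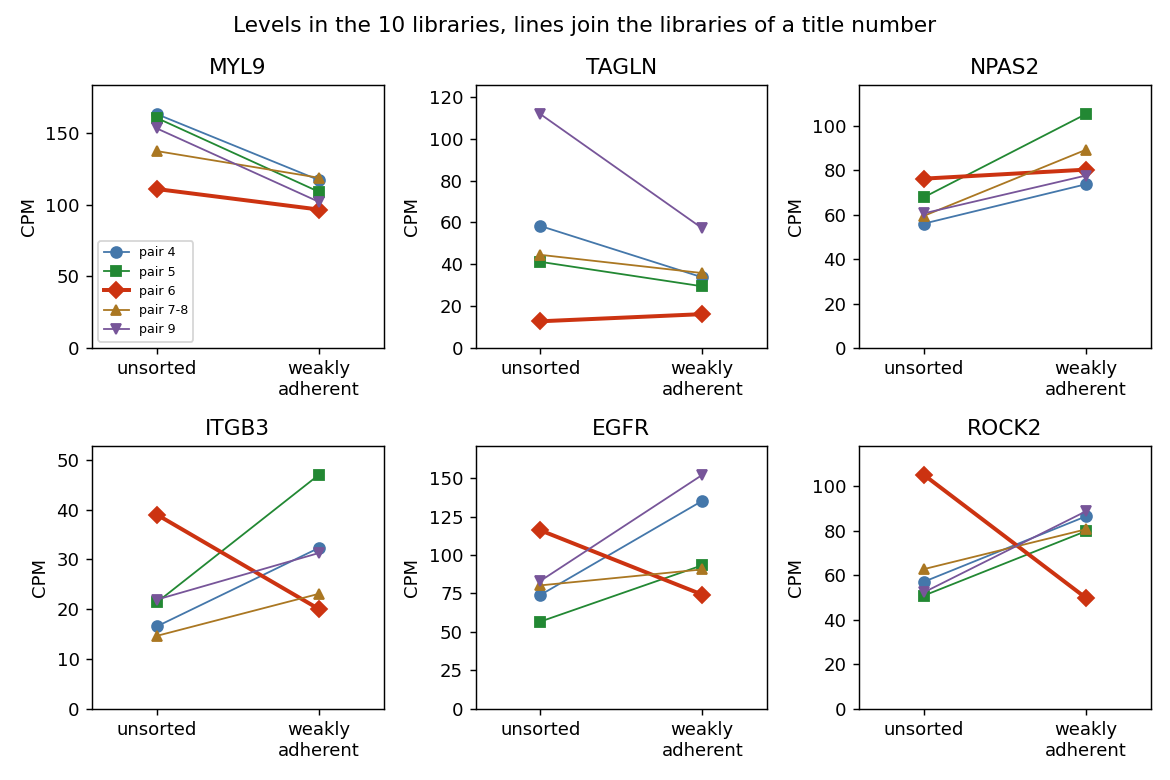
CPM (y axis, from 0) of 6 genes in the unsorted and weakly adherent libraries (x axis), each line joining the 2 libraries of a title number and the thick red line being pair 6. MYL9 goes down and NPAS2 goes up in all 5 pairs, TAGLN goes down in all but pair 6, and ITGB3, EGFR and ROCK2 go up in pairs 4, 5, 7-8 and 9 and down in pair 6.

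The others of the 29 included the transcription regulators ELK3 (0.48 ± 0.11, SE, DESeq2 adjusted p = 0.00741), BACH1 (0.55 ± 0.12, SE, DESeq2 adjusted p = 0.00847) and VGLL3, a cofactor of TEAD factors (0.63 ± 0.15, SE, DESeq2 adjusted p = 0.0215). TEAD1 itself was higher in these 4 pairs by 0.34, 0.43, 0.23 and 0.56 and lower in pair 6. PAPPA, a protease that frees insulin-like growth factors, had the largest difference after TENM1: it was at 0.559, 1.11, 1.30 and 0.835 CPM in unsorted and 1.93, 4.86, 3.86 and 2.83 CPM in weakly adherent libraries (1.82 ± 0.31, SE, DESeq2 adjusted p = 9.21e-05), and at 2.73 and 0.523 CPM in pair 6. It lies below the 5 CPM of the naming rule and was picked after its values were seen. IGF2BP3, which binds mRNA of growth genes, was higher by 0.055, 0.58, 0.79 and 0.77 (0.55 ± 0.14, SE, DESeq2 adjusted p = 0.0342). KIAA0754 (1.01 ± 0.19) and ZBED6 (0.95 ± 0.17) had low adjusted p as well, but each lies inside a larger gene, MACF1 and ZC3H11A, so their reads are uncertain.

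The 7 lower genes included TAGLN, MYL9, SCARA3, PAGE5, C4orf48 and CYBA. TAGLN was at 58.3, 41.1, 44.5 and 112 CPM in the unsorted and 33.7, 29.4, 35.8 and 57.2 CPM in the weakly adherent libraries of the 4 pairs (-0.64 ± 0.14, SE, DESeq2 adjusted p = 0.00324, edgeR 0.274). Unsorted 9 was the highest and every pair had the same sign. MYL9 differed by -0.48, -0.56, -0.21 and -0.59 (-0.46 ± 0.11, SE, DESeq2 adjusted p = 0.0215) and was the only 1 of the 7 that was also lower in pair 6. CYBA, a subunit of the NADPH oxidase, was at 123, 144, 122 and 112 CPM against 107, 80.6, 90.1 and 74.5 CPM (-0.52 ± 0.13, SE, DESeq2 adjusted p = 0.0251). SCARA3 was at 38.9, 37.1, 27.8 and 34.5 CPM against 29.9, 14.8, 13.6 and 23.6 CPM (-0.82 ± 0.17, SE, DESeq2 adjusted p = 0.0021). The unpaired weakly adherent library numbered 10 was at 77.63 (TAGLN), 143.1 (CYBA) and 40.97 CPM (SCARA3), with all 15 libraries scaled together. These values lay above the weakly adherent libraries of the 4 pairs. The cancer-testis gene PAGE5 differed by -1.06, -0.92, -1.38 and -0.44 and by 2.41 in pair 6. For PAGE5 library 10 was at 5.57 CPM, within the 3.28 to 10.67 CPM of the libraries of the 4 pairs. Among the lists, without pair 6, 10 of 45 nuclear oxidative phosphorylation genes and 7 of 51 ribosomal protein genes were lower in 4 of 4 pairs, 8 of 33 zinc finger genes were higher and 6 of 34 actomyosin genes were lower with 4 higher, against 9.33% higher and 7.76% lower among all genes. These were examples from the 40 lists. Others had like shares, with 6 of 34 spliceosome genes lower and 0 higher, and 6 of 30 tubulin and microtubule genes higher and 2 lower. Members of a list can move together, so the shares are a description.

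**Figure D5:**
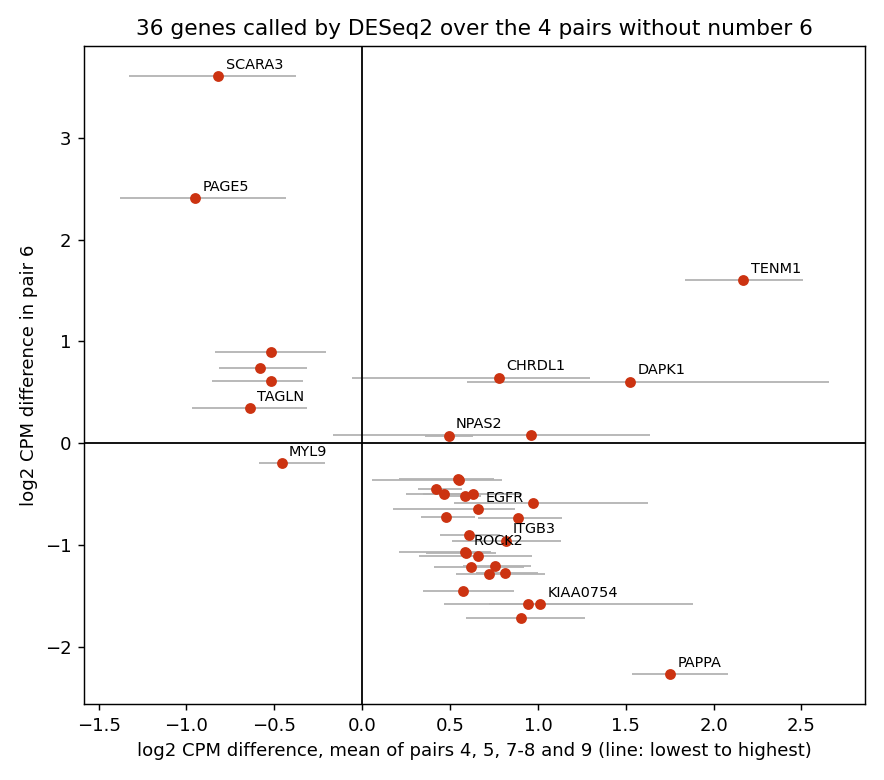
Difference in log2 CPM in pair 6 (y axis) against the mean of pairs 4, 5, 7-8 and 9 (x axis) for the 36 genes DESeq2 called without pair 6, grey lines running from the lowest to the highest of the 4 pairs. Of the 36, 30 have the opposite sign in pair 6, and MYL9, NPAS2, CHRDL1, DAPK1 and TENM1 are among the other 6.

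Single genes with the widest spread over pairs were mostly set by 1 library. PAEP, the secreted glycoprotein glycodelin, was at 0.741, 3.69, 114, 0.429 and 2.02 CPM in weakly adherent and 0.954, 1.49, 0.0746, 1.75 and 6.06 CPM in unsorted libraries, so weakly adherent 6 was high and had 3712 counts against 3 in its partner. PTPRN2, a membrane protein of secretory granules, was at 0.584, 3.06, 41.2, 0.973 and 0.0246 CPM against 0.132, 3.59, 0.174, 0.159 and 4.17 CPM. It was high in weakly adherent 6, and stood in pair 9 at 135 counts in the unsorted and 1 in the weakly adherent library. MMP10, the matrix protease stromelysin-2, was highest in unsorted 7-8 at 75.3 CPM and differed by -0.23, 0.19, 4.1, -3.31 and 2.34. SLITRK6 differed by 2.8, -0.67, 5.4, -1.82 and 1.37, with 0 counts in unsorted 6 and 72 in its partner, and UCA1, a long noncoding RNA of carcinoma cells, by -2.0, 0.12, 5.71, 0.34 and 0.61 with 2 counts in unsorted 6. CTGF, a target of YAP and TAZ, was high in weakly adherent 4 and in both libraries of pair 6: it was at 399.9, 452, 1394, 498 and 627 CPM in unsorted and 971, 411, 1082, 377 and 537 CPM in weakly adherent libraries.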

How the data were processed

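Bulk mRNA of 15 tumour libraries was sequenced as 50 bp single-end reads from the Illumina TruSeq stranded kit, per the labels' protocols. The tools in the submitters' processing notes are STAR, HTSeq, cutadapt, FastQC and DESeq2, on build hg19, without versions or a strand setting. The organism is labelled as mouse but symbols and build are human, so mouse host reads that align to human genes may be among the counts. The authors deposited raw counts for 25382 gene symbols. They also deposited log2 values, which match log2 of 1 plus the count divided by DESeq2's size factor (largest deviation 5.15e-14) and served only the limma-trend alternative. edgeR 4.0.16 under R 4.3.3 was run on the counts of the 10 paired libraries (robust quasi-likelihood fit, filterByExpr, TMM scaling, title number as a block plus adhesion, 4 residual degrees of freedom, two-sided, Benjamini-Hochberg over all genes, threshold 0.05). The filter kept 14573 genes with 99.96% of counts, and the biological coefficient of variation was 20.1%. Standard errors were derived as the log2 fold change over the square root of F. Each pair was also tested against the other 4 by an interaction term. The pairing rests on the title numbers: deviations of same-numbered libraries from their group means correlated at 0.169, 0.292, 0.656, 0.35 and 0.286 for numbers 4, 5, 6, 7-8 and 9, though weakly adherent 4 and 7-8 correlated higher with another number (0.273 and 0.398). No 2 libraries held equal counts. Named genes were those with a proper symbol at a mean of at least 5 CPM: in each direction the 8 of smallest p and the 8 most consistent over 5 pairs, the 8 of widest spread, the 6 of largest interaction, up to 8 called by DESeq2, up to 4 consistent and the 2 most abundant members of each list, and ITGB1, PTK2, VIM, CDH1, MKI67 and CD44. Genes outside this rule (BACH1, CLOCK, COX6A1, DAPK1, EGFR, ELF3, ELK3, IGF2BP3, IRX2, ISG15, KRT18, MUC1, MX1, NEB, PAPPA, ROCK2, RPL11, RPS16, SOCS1, STRA6, TEAD1, TENM1, TNNC1, TTN, VGLL3, WNT5A and ZEB1) were picked after their values were seen. Some genes that the rule names are not reported here. The comparison, the members and the 40 gene lists (1016 of 1021 entries in the table) were chosen with earlier results of these data known. Intervals and the floor of 3 counts cover counting error only, since no molecular identifiers are described. Alternatives were other scaling and filters, no replicate block, DESeq2 1.42.0, limma 3.58.1 (voom and trend), and each title number left out. No sequences or gene coordinates were used here.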

Additional observations from a re-analysis of the deposited data

Results flagged for a closer look

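Values of 1 pair lay far from those of the other 4 in 23 of 95 sets of 5 examined, and 17 of the 23 fell on pair 6. Chance alone flags about 1 in 20, but many of the sets were chosen for a departure of pair 6, so neither count can be read against that share. TFF3, NUP210, NLRP2, ZBED6, RAD54L2 and PALM2 were examined for a wide spread or a large interaction of pair 6, and SCARA3, PAGE5 and TTBK2 for being called without it. Among gene lists, pair 6 stood apart in its median log2 difference for HLA class I (0.341), unfolded protein stress (0.303), NF-kB cytokines (0.275) and striated muscle markers (-2.23). Pair 5 did so for cholesterol synthesis (-0.377) and pair 4 for mesenchymal genes (0.084). Among genes, pair 6 stood apart for TFF3 (6.66), NUP210 (5.93), NLRP2 (5.18), SCARA3 (3.61), PAGE5 (2.41) and TRIM59 (1.21), which were more positive there. It was more negative for TNNC1 (-1.83), RAD54L2 (-1.63), PALM2 (-1.63), ZBED6 (-1.58), TTBK2 (-1.28), TPM1 (-0.99) and PTK2 (-0.49). The rest were UBXN2B in pair 9 (0.37), CEBPD in pair 7-8 (-1.05), WNT5A in pair 5 (-2.50) and PDK1 in pair 4 (0.51). The weakly minus unsorted difference of pair 6 differed from that of the other 4 pairs by edgeR's interaction test in 402 genes.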

How the results depend on the processing

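Leaving out the title number 6, 7-8 or 9 gave 36, 2 and 3 genes called by DESeq2 with the replicate block, an alternative chosen after seeing the data; leaving out 4 or 5 gave 0. edgeR called 0 under each alternative, including no replicate block (0, with 108 genes at an unadjusted p under 0.05). The call count of DESeq2 without pair 6 ranged from 0 to 117 when a further number was left out. Genes higher in every pair by 1.2-fold numbered 43 without a filter, 6 at 1 CPM in 5 libraries and 43 to 115 with 1 pair left out; lower genes numbered 32, 5 and 34 to 82. Fewer pairs make a single sign easier to reach. Against the other pairs DESeq2 with the block called 13 (pair 4), 3 (pair 5), 950 (pair 6) and 17 (pair 7-8) genes. With 1 other pair left out, edgeR called 0 to 3, 0 to 1, 154 to 759 and 0 to 1. Other causes were not tested. Of 300 gene values under alternatives, 9 had the other sign, in 5 genes that no setting called. CDH1 was at -0.088 with no replicate block; with 1 pair left out ITGB1 ran from -0.018 to 0.17, PTK2 from -0.018 to 0.15, VIM from -0.15 to 0.0023 and CD44 from -0.017 to 0.057. Of 89 pair 6 values for 15 genes, 85 remained past the threshold with the same sign and 0 changed sign; the exceptions were KIAA0754 and C4orf48. Genes below 1 CPM rest on few counts, so their pair differences carry wide counting error.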
